A study of Mus musculus with 24 samples.

Results

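Cholesterol is built from acetyl-CoA in 2 stages. The mevalonate stage makes the isoprene units that are joined into squalene, and the sterol stage closes squalene into lanosterol and trims it to cholesterol. The genes of both stages are textbook targets of the SREBP transcription factors, which the INSIG proteins hold in the endoplasmic reticulum when sterols are plentiful. In mammalian testis, Leydig cells use cholesterol for androgens, and haploid germ cells are known for high Cyp51, which acts early in the sterol stage. The levels of 8 genes of this pathway were followed in mouse testes with and without Nsun2, an RNA cytosine methyltransferase: the mevalonate-stage genes Hmgcs1 and Idi1, the sterol-stage genes Sqle, Cyp51, Msmo1, Nsdhl and Dhcr7, and the regulator Insig1. Members were found by the symbol annotated to each probe. Of the 8 genes, 7 had a named probe, 15 probes in all, against 19057 named genes and 45278 probes on the whole array. Hmgcs1 is not analysed here. Of the 15 probes, 13 were among the brighter share of probes that was tested, and these 13 covered all 7 measured genes of the 12166 genes tested.

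Whole testis RNA was hybridised to Illumina bead arrays in 4 groups of 6 arrays, lettered A to F in each group: NSun2 KO testes at 49 days, WT testes at 49 days, NSun2 KO testes at 15 days and WT testes at 15 days. All animals were the F1 generation of a cross of CBA and C57BL/6J. The KO mice came from 2 lines, one derived from the gene-trap embryonic stem cell line D014D11 and the other carrying the allele Nsun2tm1a(EUCOMM)Wtsi, and the labels do not tell which array carries which line. Nothing in the labels states that the arrays come from separate animals, and the p-values then measure only the spread between these samples, which may be technical. Levels are log2 intensities after background correction and quantile normalization, a change is the difference of 2 group means on that scale, and a change passed the test where limma's p, adjusted by the Benjamini-Hochberg method over all 22639 tested probes, was under 0.05.

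Between 16267 and 19051 probes per array were above background, meaning brighter than all but a share of 0.01 of the 946 dim control rows. As a check of the labels, the Nsun2 probe exceeded background on 0 KO and 3 WT arrays at 49 days, and on 0 KO and 5 WT arrays at 15 days, of 6 in each group. It was at least 1.17-fold lower in KO at 49 days (adjusted p = 5.44e-05) and at least 1.16-fold lower in KO at 15 days (adjusted p = 3.06e-04, limma). The testis label was checked with a list of haploid germ cell genes, of which all 15 tested were above background on all 6 WT arrays of 49 days. A haploid germ cell score was taken per array as the mean log2 level of these 15 genes minus its mean over the WT arrays of 49 days. It was -0.80, -2.26, -3.17, -4.39, -2.53 and -0.45 on KO arrays A to F of 49 days, against -0.04 to 0.05 on the WT arrays of 49 days. KO arrays A and F thus lay closest to WT, and array D lay farthest from it. In RNA from whole tissue, fewer cells of a type and less RNA per cell cannot be told apart.

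At 49 days the cholesterol genes did not move as a block in KO testes. By the brightest tested probe of each gene, Msmo1, Dhcr7 and Insig1 were higher in KO, Cyp51 was lower, and Idi1, Sqle and Nsdhl did not pass the test. The second and the third Insig1 probe and the second Sqle probe were lower in KO, and the fourth Nsdhl probe was higher. The calls for Insig1, Sqle and Nsdhl thus depended on the probe. The counts of 3 genes higher and 1 lower among 7 stand beside 46.8% of all 12166 tested genes called higher and 26.5% called lower in the same comparison. The median change of the 7 genes was 0.27, beside 0.30 over all tested genes. Under cyclic loess normalization in place of quantile normalization, the median over all genes moved to -0.07, the share of higher calls among called probes was 40.9% in place of 60.3%, and the members' counts were 3 higher and 2 lower, with Sqle passing as lower. Changes of single genes below are therefore read against that shift of all genes. Where all KO arrays are said to lie apart from all WT arrays, the share of all genes doing so is not given here. Such separation is a description and is not shown to be particular to these genes.

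**Figure D1:**
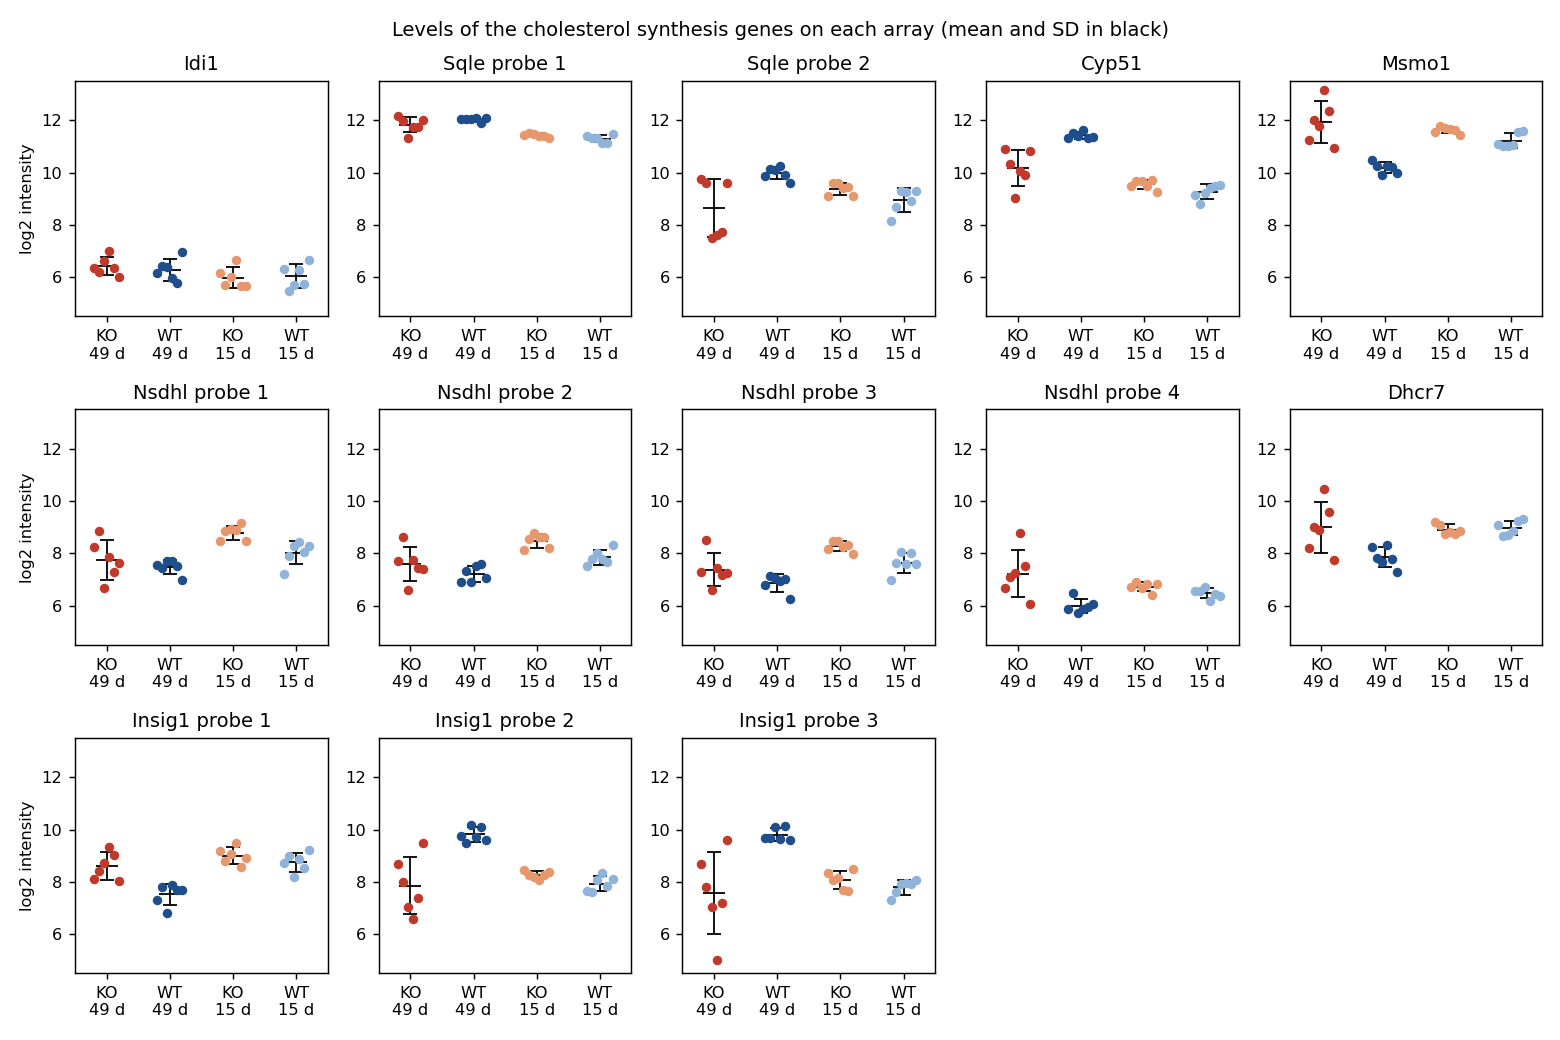
Log2 intensity of the 13 tested probes of the 7 measured cholesterol genes on each array, in KO and WT testes at 49 days and at 15 days (6 arrays a group, points in the order of letters A to F, black bar the mean and SD). Cyp51 lay at 9.02 to 10.90 on KO arrays of 49 days, below all 6 WT arrays of that age at 11.32 to 11.64, while Msmo1 lay at 10.94 to 13.17 in KO, above all 6 WT arrays at 9.91 to 10.49.

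Idi1 encodes the isomerase that interconverts the isoprene units made from mevalonate, and was the measured member of the mevalonate stage. Its single probe was dim and exceeded background on 3 KO and 1 WT arrays at 49 days, and on 1 KO and 1 WT arrays at 15 days, of 6 in each group. The level ran from 6.00 to 6.998 (median 6.35) in KO at 49 days, against 5.79 to 6.95 (median 6.27) in WT. It ran from 5.66 to 6.68 (median 5.87) in KO at 15 days, against 5.46 to 6.66 (median 6.02) in WT. The groups overlapped at both ages, with changes of 0.15 ± 0.23 at 49 days (SE, adjusted p = 0.58, limma) and -0.05 ± 0.23 at 15 days (SE, adjusted p = 0.97, limma). A difference in Idi1 was not detectable at this signal.

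Squalene epoxidase, encoded by Sqle, adds the oxygen that allows squalene to be closed into a ring and is a rate-limiting enzyme of the sterol stage. Of its 3 probes, 1 was not above background on any array and was not tested. The first probe had levels of 11.32 to 12.17 (median 11.87) in KO testes of 49 days, against 11.89 to 12.10 (median 12.06) in WT. The second ran from 7.51 to 9.77 (median 8.67) in KO, against 9.61 to 10.23 (median 9.996) in WT. On the first probe 3 KO arrays lay below every WT array and 1 above, and the change of -0.21 ± 0.12 (SE) did not pass the test (adjusted p = 0.11, limma). On the second probe 5 of 6 KO arrays lay below every WT array, and the change was -1.34 ± 0.34 (SE, adjusted p = 0.0015, limma), a 2.52-fold lower intensity. The second probe was split among the KO arrays: A, B and F read 9.77, 9.59 and 9.60, while C, D and E read 7.51, 7.61 and 7.75.

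The difference between both Sqle probes, the second minus the first on each array, was lower in KO than in WT at 49 days, with a value of -1.13 for KO minus WT (log2, exact two-sided permutation p = 0.00866, adjusted p = 0.0208 over 12 tests of probe differences). The tests of probe differences were chosen after the values were seen. The first probe's call changed with the settings. It passed as lower under cyclic loess (-0.88), under scale normalization (-0.50), with array weights (-0.32) and without KO array A of 49 days (-0.28). In WT testes both probes rose with age, by 0.74 ± 0.12 and 1.03 ± 0.34 (SE, adjusted p = 3.04e-06 and 0.0079, limma).

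Cyp51 encodes lanosterol demethylase, whose product belongs to the meiosis-activating sterols that accumulate in testis. Its probe read 10.90, 10.33, 9.02, 10.08, 9.92 and 10.82 on KO arrays A to F of 49 days, against 11.34, 11.50, 11.39, 11.64, 11.32 and 11.37 on WT arrays A to F. All 6 KO arrays lay below all 6 WT arrays, with arrays A and F closest to WT and array C lowest. The change was -1.25 ± 0.22 (SE, adjusted p = 3.78e-05, limma), a 2.38-fold lower intensity, and lay between -1.88 and -1.11 under the other settings and between -1.39 and -1.02 with single arrays left out. Within each of the 4 slides the KO arrays lay below the WT arrays, by -0.88 to -2.40. At 15 days Cyp51 read 9.24 to 9.70 (median 9.58) in KO, against 8.79 to 9.53 (median 9.32) in WT, a change of 0.28 ± 0.22 (SE, adjusted p = 0.57, limma) with overlapping groups.

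In WT testes Cyp51 was 4.47-fold higher at 49 days than at 15 days, a change of 2.16 ± 0.22 (SE, adjusted p = 4.45e-09, limma), the largest in size of the members' brightest probes in that comparison. In KO testes the change with age was 0.63 ± 0.22 (SE, adjusted p = 0.016, limma). The rise in KO did not pass without KO array A (0.49, adjusted p = 0.055) or array F of 49 days (0.50, adjusted p = 0.052), which were the arrays closest to WT. It also did not pass over the 12 KO arrays alone (adjusted p = 0.076) or with array weights (0.27, adjusted p = 0.076). The difference of the KO effect between the ages was -1.53 ± 0.31 (SE, adjusted p = 6.82e-04, limma).

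Msmo1 encodes the oxidase that starts removal of the methyl groups from the sterol ring after the step of Cyp51. Its probe read 11.23, 12.01, 11.80, 13.17, 12.35 and 10.94 on KO arrays A to F of 49 days, against 10.49, 10.24, 9.91, 10.24, 10.22 and 9.99 on WT arrays A to F. All 6 KO arrays lay above all 6 WT arrays, with array D highest and arrays A and F closest to WT. The change was 1.73 ± 0.24 (SE, adjusted p = 4.26e-06, limma), a 3.33-fold higher intensity, and 1.48 without array D. It was positive within each of the 4 slides, at 1.43 to 2.21. Under cyclic loess it was 1.22.

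At 15 days Msmo1 read 11.43 to 11.77 (median 11.65) in KO, against 11.03 to 11.61 (median 11.06) in WT. Here 4 of 6 KO arrays lay above every WT array, and WT arrays E and F, at 11.54 and 11.61, lay with the KO arrays. The change of 0.40 ± 0.24 (SE) did not pass the test (adjusted p = 0.43, limma). With the spread estimated from the 12 arrays of 15 days alone, it passed (adjusted p = 0.040). In WT testes Msmo1 fell with age, with a change of -1.04 ± 0.24 (SE, adjusted p = 4.53e-04, limma), a call that was lost under cyclic loess (-0.29, adjusted p = 0.21).

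Nsdhl is the X-linked dehydrogenase that acts with Msmo1 in removing the same methyl groups, and had 4 tested probes. The first ran from 6.68 to 8.87 (median 7.75) in KO at 49 days, against 6.98 to 7.72 (median 7.53) in WT. It ran from 8.48 to 9.15 (median 8.86) in KO at 15 days, against 7.22 to 8.43 (median 8.17) in WT. At 49 days the groups overlapped, with 3 KO arrays above every WT array and 1 below. The first 3 probes changed by 0.27, 0.37 and 0.51 at 49 days, with adjusted p-values of 0.36, 0.15 and 0.055 (limma), and the sign of the first turned under cyclic loess (-0.13) and with array weights (-0.20).

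At 15 days all 6 KO arrays lay above all 6 WT arrays on the first Nsdhl probe, and the change of 0.76 ± 0.26 (SE) was the largest of the 7 genes at that age. It did not pass (adjusted p = 0.10, limma), and neither did the changes of 0.63, 0.64 and 0.26 on the other probes. Over the 12 arrays of that age alone the first probe passed (adjusted p = 0.015), as it did with array weights (0.69, adjusted p = 0.012). Within each slide its difference was positive, at 0.49 to 1.67. The share of all genes whose groups lay apart at 15 days is not given here.

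The fourth Nsdhl probe read 6.68, 7.10, 7.24, 8.78, 7.50 and 6.07 on KO arrays A to F of 49 days, against 5.88, 6.49, 5.71, 5.87, 5.94 and 6.05 on WT arrays A to F. It was above background on 5 of 6 KO arrays and 0 of 6 WT arrays, so only a bound holds, the brighter group's mean over the lowest level above background on each dim array. It was at least 1.55-fold higher in KO (adjusted p = 3.66e-04, limma). The fitted change was 1.24, against 0.93 without array D, the highest KO array, and 0.49 on the authors' values. The fourth probe minus the first, taken on each array, was 0.97 higher in KO than in WT at 49 days. That difference did not pass (exact two-sided permutation p = 0.12, adjusted p = 0.20 over 12 tests of probe differences).

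Dhcr7 encodes the reductase of the last step to cholesterol. Its probe read 8.20, 9.01, 8.89, 10.47, 9.60 and 7.76 on KO arrays A to F of 49 days, against 8.23, 7.82, 7.66, 8.33, 7.77 and 7.28 on WT arrays A to F. Arrays B, C, D and E of KO lay above every WT array, and arrays A and F lay within the WT range. The change was 1.14 ± 0.30 (SE, adjusted p = 0.0020, limma), a 2.20-fold higher intensity, and it was 0.84 without array D and 0.74 under cyclic loess (adjusted p = 0.018). At 15 days Dhcr7 read 8.72 to 9.20 (median 8.84) in KO, against 8.67 to 9.33 (median 8.97) in WT, a change of -0.07 ± 0.30 (SE, adjusted p = 0.96, limma). In WT testes Dhcr7 fell with age, with a change of -1.13 ± 0.30 (SE, adjusted p = 0.0015, limma), which was also lost under cyclic loess (-0.36, adjusted p = 0.22).

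Insig1 encodes one of the proteins that retain the SREBP carrier in the endoplasmic reticulum and is itself an SREBP target. Of its 4 probes, 1 was not above background on any array, and the other 3 disagreed. The first read 8.10, 8.42, 8.72, 9.34, 9.03 and 8.02 on KO arrays A to F of 49 days, against 7.30, 7.80, 6.82, 7.86, 7.70 and 7.69 on WT arrays A to F. The second read 8.67, 7.98, 7.02, 6.56, 7.38 and 9.49 on KO arrays A to F, against 9.76, 9.49, 10.18, 9.72, 10.10 and 9.61 on WT arrays A to F. All 6 KO arrays lay above all WT arrays on the first probe and below all WT arrays on the second, and array D was the highest KO array on the first and the lowest on the second.

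The first Insig1 probe changed by 1.07 ± 0.23 (SE, adjusted p = 2.90e-04, limma) and the second by -1.96 ± 0.32 (SE, adjusted p = 1.72e-05, limma), a 2.10-fold higher and a 3.89-fold lower intensity in KO. The size moved with the processing: the first was 0.67 under cyclic loess and 0.63 on the authors' values, and the second -1.29 on the authors' values, all of which passed. The third probe followed the second: it ran from 5.01 to 9.60 (median 7.51) in KO, against 9.59 to 10.12 (median 9.68) in WT, a change of -2.24 ± 0.44 (SE, adjusted p = 1.42e-04, limma), and -1.73 without array D and -1.37 on the authors' values. The second and the third probe were above background on 5 of 6 KO arrays, all but D, and the first on 5 of 6 WT arrays. The choice of the first probe to stand for the gene rests on a small margin in brightness, and the call for Insig1 would be lower in KO with the second or the third.

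The second Insig1 probe minus the first, taken on each array, was lower in KO than in WT at 49 days, with a value of -3.03 for KO minus WT (log2, exact two-sided permutation p = 0.0022, the smallest it can give, adjusted p = 0.0087). Between KO and WT at 15 days it differed by 0.09 (exact permutation p = 0.72). In WT testes it was higher at 49 days than at 15 days by 3.09 (exact permutation p = 0.0022, adjusted p = 0.0087). The probes thus changed unequally with age in WT, by -1.21 ± 0.23, 1.88 ± 0.32 and 2.01 ± 0.44 (SE, adjusted p = 3.89e-05, 9.73e-06 and 2.47e-04, limma) in the order of the probes. All 3 carry the same RefSeq accession in the annotation. Where they lie in the transcript is not given in the sources used here. The pair tested was chosen after the values were seen, and the adjustment does not cover that choice.

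**Figure D2:**
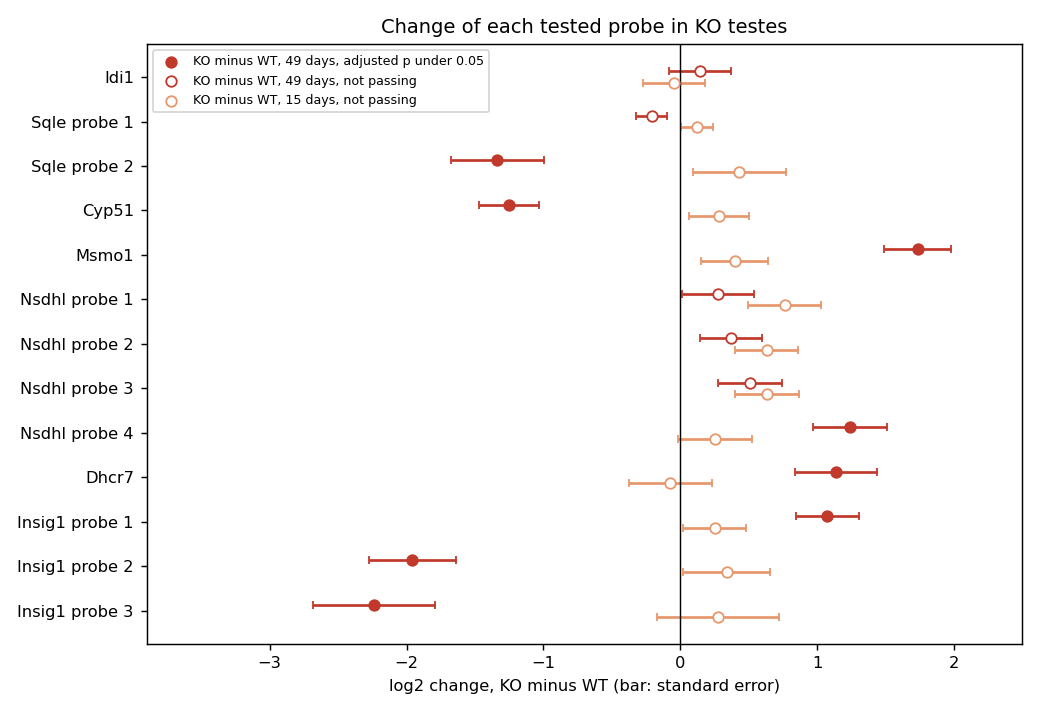
Log2 change between KO and WT for the 13 tested probes, at 49 days (dark) and 15 days (light), with bars of 1 standard error. Filled points passed at an adjusted p under 0.05 and open points did not: at 49 days 3 probes of Insig1 lie on both sides of 0, and at 15 days no probe passed.

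The promoters of Cyp51, Msmo1 and Insig1 are shown because these genes passed the test at 49 days in both directions. They were taken from RefSeq (GRCm38.p6, 250 bases before to 50 after the annotated start, 5′ to 3′ on the gene's strand), which holds promoters for 7 of the 8 genes and 9 promoters in all, each of 300 bases. Cyp51 lies at chr5:4104648-4104947 on the minus strand, Msmo1 at chr8:64733529-64733828 on the minus strand, and Insig1 at chr5:28071162-28071461 on the plus strand. Capitals mark matches on either strand to TGACG (the half-site of a cAMP response element, which also lies within the full site TGACGTCA) and CCAAT (the site of the factor NF-Y):
Cyp51: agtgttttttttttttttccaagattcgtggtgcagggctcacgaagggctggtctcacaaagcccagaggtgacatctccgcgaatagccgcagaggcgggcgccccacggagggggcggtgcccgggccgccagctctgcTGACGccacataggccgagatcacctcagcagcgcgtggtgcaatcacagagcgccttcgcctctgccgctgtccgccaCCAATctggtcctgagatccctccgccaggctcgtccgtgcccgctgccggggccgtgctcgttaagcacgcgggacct
Msmo1: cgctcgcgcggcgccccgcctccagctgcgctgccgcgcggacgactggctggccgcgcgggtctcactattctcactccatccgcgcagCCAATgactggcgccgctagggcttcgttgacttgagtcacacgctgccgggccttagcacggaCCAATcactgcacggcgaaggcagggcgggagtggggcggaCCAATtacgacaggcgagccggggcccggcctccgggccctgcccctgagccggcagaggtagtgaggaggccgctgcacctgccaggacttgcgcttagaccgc
Insig1: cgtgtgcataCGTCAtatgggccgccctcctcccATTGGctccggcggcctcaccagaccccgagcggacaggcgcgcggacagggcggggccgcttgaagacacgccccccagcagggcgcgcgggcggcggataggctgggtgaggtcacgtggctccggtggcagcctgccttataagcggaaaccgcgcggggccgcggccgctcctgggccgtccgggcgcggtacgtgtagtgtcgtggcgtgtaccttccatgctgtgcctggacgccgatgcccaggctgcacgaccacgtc
The Cyp51 promoter held TGACG with its first base at position -108 from the start, and CCAAT at -29. Of 32851 promoters of the same length, 20.8% held TGACG and 37.4% CCAAT on either strand. The Msmo1 promoter held CCAAT 3 times, at positions -160, -96 and -55, and no TGACG. The Insig1 promoter held TGACG and CCAAT on the opposite strand, at positions -240 and -216. The full site TGACGTCA was in 1.79% of all promoters and in 0 of these 9. The sterol regulatory element was not searched. In mouse, Cyp51 expression in spermatids is known to involve the factor CREM acting at a cAMP response element of its promoter. The matches describe letters in these windows.

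At 15 days none of the 7 genes passed the test, beside 4.69% of all tested genes called in either direction (limma, adjusted p under 0.05). At an unadjusted p under 0.05, 1 of 7 passed, Nsdhl, beside 19.1% of all genes. With the spread estimated from the 12 arrays of 15 days alone, 2 of 7 passed, Nsdhl and Msmo1, both higher in KO, beside 19.2% of all tested genes under that setting. With array weights 1 of 7 passed, Nsdhl, beside 21.4% of all tested genes. Of 8 pachytene spermatocyte genes tested, 5 were lower in KO at this age and 0 were higher, with their mean level at 6.36 to 8.38 on the KO arrays, against 8.53 to 10.61 on the WT arrays. The haploid genes averaged 7.15 on KO array B and 6.72 on WT array A of 15 days, against 5.58 to 6.15 on the other arrays of that age. The part of these markers in the members' values was not tested.

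The difference of the KO effect between the ages passed the test for 4 of 7 genes, beside 52.9% of all tested genes. It was 1.34 ± 0.35 for Msmo1, 1.21 ± 0.43 for Dhcr7 and 0.82 ± 0.32 for the first Insig1 probe, against -1.53 ± 0.31 for Cyp51 (SE, adjusted p = 0.0038, 0.023, 0.040 and 6.82e-04, limma). The call for Insig1 was lost under cyclic loess (0.43) and on the values without background correction (0.45). It was also lost with slide as a fixed block (0.72) and with no filter on dim probes. When each array was left out in turn, the call for Insig1 held in 13 of these fits and was lost in the rest. The call for Dhcr7 was lost under cyclic loess (0.83, adjusted p = 0.078). Under the same setting the value for Msmo1 was 0.85 and passed (adjusted p = 0.026). Members' counts at 49 days were 3 higher and 1 lower without array D as well, and the count for the difference between ages was then 2 higher and 1 lower.

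With age, the WT testes showed 2 members higher at 49 days, Cyp51 and Sqle, and 3 lower, Msmo1, Dhcr7 and the first Insig1 probe, beside 27.9% and 55.2% of all tested genes. The median change of the 7 was -0.54, beside -0.58 over all tested genes. Under cyclic loess the median over all genes was 0.10 in place of -0.58, the share of higher calls among called probes was 55.6% in place of 33.9%, and 3 members were higher and 0 lower, so the fall of the 3 genes holds relative to the quantile-normalized distribution. In KO testes 2 members were higher at 49 than at 15 days, Sqle (0.41 ± 0.12, SE, adjusted p = 0.0042) and Cyp51, and 1 was lower, Nsdhl (-1.03 ± 0.26, SE, adjusted p = 0.0019, limma), so 3 of 7 genes passed beside 58.2% of all tested genes in either direction. Under cyclic loess the split among called probes was 60.0% higher in place of 37.3%, and the call for Nsdhl was lost (-0.66, adjusted p = 0.063). Idi1 (0.74, adjusted p = 0.0050) and Msmo1 (0.55, adjusted p = 0.029, limma) then passed as higher in KO at 49 than at 15 days. Of all tested genes 54.7% were called in either direction under that setting. The comparison with age in WT and the comparison of KO with WT at 49 days share the 6 WT arrays of 49 days.

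The spread of the members among the KO arrays of 49 days was set against the haploid germ cell score of the same arrays. Across the 6 arrays Msmo1, Dhcr7 and the first Insig1 probe were higher where the score was lower, and the second and the third Insig1 probe were lower there. Pearson's r was -0.92 for Msmo1, -0.92 for Dhcr7 and -0.93 for the first Insig1 probe, with adjusted exact permutation p-values of 0.032, 0.032 and 0.032 over 7 genes (raw p = 0.014, 0.012 and 0.012). Spearman's rho was -0.83, -0.83 and -0.94 for these, with adjusted exact permutation p-values of 0.082, 0.082 and 0.058, none of which passed. The share of all tested genes with a relation of this size is not given here. These values are therefore not shown to be particular to the members. Without the arrays farthest from the median score, D and F, r was -0.70, -0.70 and -0.79, so the size of the relation rests in part on these arrays. No relation is read for Idi1, which is counted among the 7, since its probe was not above background on 3 of the 6 arrays.

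For Cyp51 r was 0.70 and rho 0.77 (exact permutation p = 0.12 and 0.10, adjusted 0.16 and 0.12), and r was 0.93 without arrays D and F. For the first Sqle probe r was 0.66 and rho 0.89 (exact permutation p = 0.15 and 0.033, adjusted 0.17 and 0.078), and for the first Nsdhl probe r was 0.25 and rho 0.31 (exact permutation p = 0.63 and 0.56). The second and the third Insig1 probe stood in the order of the score on all 6 arrays, with r of 0.97 and 0.98 (exact permutation p = 0.0028 and 0.0014, not adjusted). Both were not above background on array D, which had the lowest score, so their levels there are not exact. Without arrays D and F, r was 0.97 for the second and 0.97 for the third. The second Sqle probe had r of 0.83 and rho of 0.89 (exact permutation p = 0.025 and 0.033, not adjusted). The fourth Nsdhl probe, not above background on array F, ran against the score, unlike the first, with r of -0.94 and rho of -0.94 (exact permutation p = 0.0042 and 0.017, not adjusted). The second and the third Nsdhl probe had r of 0.09 and 0.04 (exact permutation p = 0.89 and 0.95). The arrays lie on 4 slides, too few per slide for a value within one. The score is itself made of array levels, so both axes share each array's normalization.

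**Figure D3:**
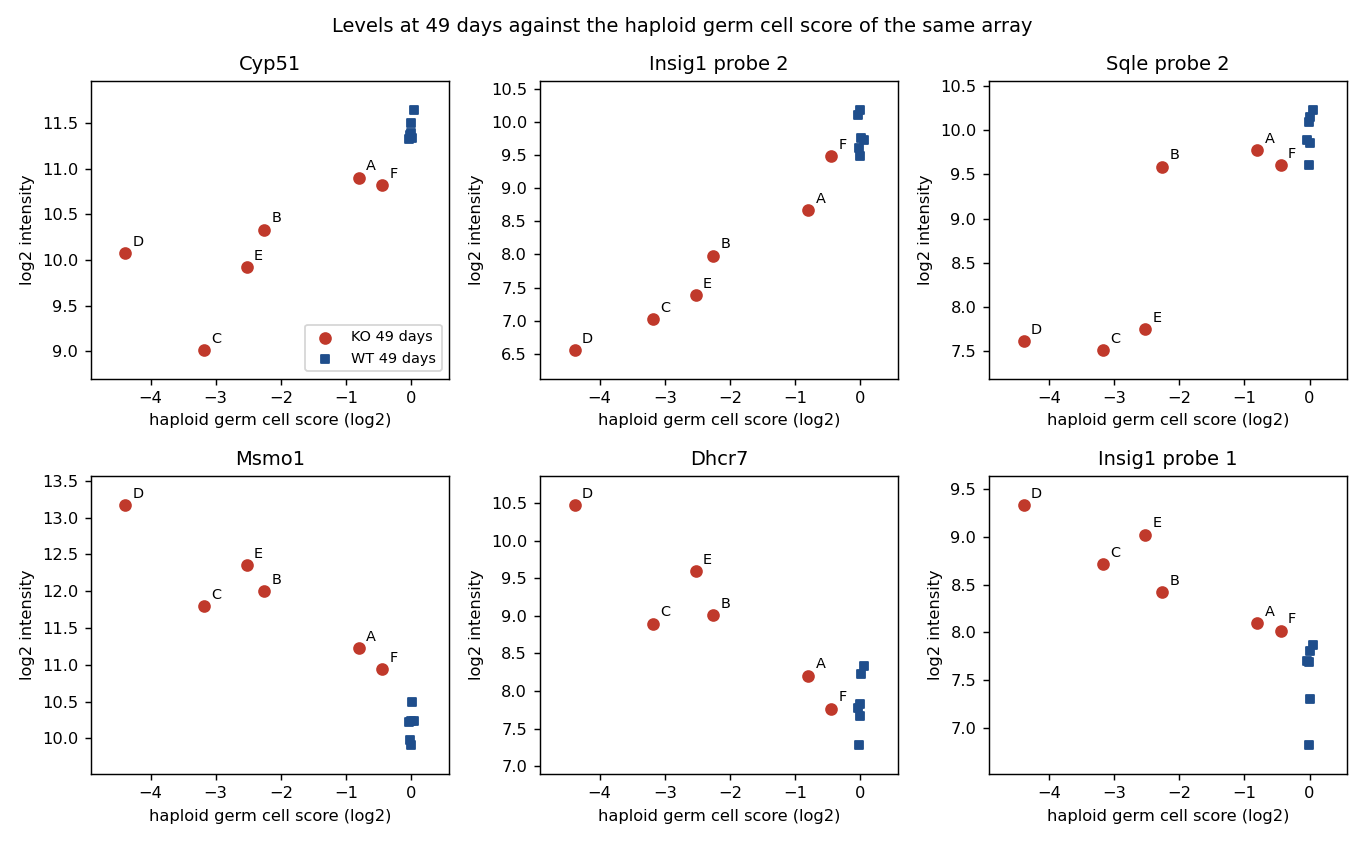
Log2 intensity of 6 probes against the haploid germ cell score on KO arrays A to F (circles) and WT arrays (squares) of 49 days. The WT arrays gather at a score of -0.04 to 0.05, and the KO arrays spread from -4.39 (D) to -0.45 (F), with Msmo1, Dhcr7 and the first Insig1 probe highest on array D and the second Insig1 probe lowest on it.

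Other cell types' markers moved in the same comparison, in which 46.8% of all tested genes were called higher and 26.5% lower. All 12 Sertoli cell genes tested were higher in KO at 49 days, under each of the 5 scalings tried too, with a mean level of 10.41 to 12.48 on the KO arrays, highest on D, against 9.47 to 9.89 on the WT arrays. Of 5 Leydig cell genes tested, 4 were higher and 1 not called, with a mean level of 11.29 to 13.03 in KO, again highest on D, against 10.44 to 11.04 in WT. Of 7 macrophage genes, 6 were higher, at 8.32 to 10.34 in KO, against 7.86 to 8.14 in WT. Of 8 pachytene spermatocyte genes, 4 were lower and 0 higher, at 10.64 to 14.13 in KO, lowest on D, against 14.21 to 14.32 in WT, and 7 were lower under cyclic loess and under scale normalization. Of 7 spermatogonial genes, 4 were higher and 0 lower, at 8.01 to 9.24 in KO, lowest on D, against 7.74 to 8.04 in WT. Under cyclic loess 2 of these were higher and 1 lower. Of 15 haploid germ cell genes, 13 were lower and 0 higher, at 9.23 to 13.17 in KO, against 13.57 to 13.67 in WT. The Sertoli genes Gata1, Gata4 and Amh and the spermatogonial genes Zbtb16, Nanos3 and Stra8 were above background on no WT array of 49 days, and every macrophage, Leydig, pachytene and haploid gene tested was above background on at least 1. The part of these shifts in the members' changes was not tested.

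The enzymes of the pathway that are not members were counted from lists chosen with earlier results of these data known. Of the 9 other sterol-stage enzymes listed, 6 were tested and all 6 were higher in KO at 49 days, beside 46.8% of all tested genes. The median change of the 6 was 1.04, beside 0.30 over all tested genes. Under cyclic loess 4 of the 6 were higher and 0 lower, and under scale normalization 5. The largest changes were those of Hsd17b7, the reductase that follows Nsdhl, at 1.49 ± 0.29 (SE, adjusted p = 1.30e-04, limma), and of Ebp, the sterol isomerase, at 1.39 ± 0.21 (SE, adjusted p = 8.66e-06, limma). Lss, the cyclase that makes lanosterol, changed by 0.78, Sc5d, a desaturase of the late steps, by 0.92, and Lbr, a sterol reductase and lamin B receptor, by 0.56. Tm7sf2, the other reductase of that step, changed by 1.15 and was above background on 5 of 6 KO arrays and 1 of 6 WT arrays. Cyp51 was thus the measured sterol-stage gene whose brightest probe was called lower at 49 days. The brightest Sqle probe joined it under cyclic loess, under scale normalization, with array weights and without KO array A of 49 days. The second Sqle probe was called lower without any change of setting.

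Of the 7 other mevalonate-stage enzymes listed, 3 were tested. Mvd, the decarboxylase that yields the first isoprene unit, was higher in KO at 49 days, by 1.07 ± 0.22 (SE, adjusted p = 2.56e-04, limma). Pmvk, the kinase just before it, was lower, by -1.04 ± 0.16 (SE, adjusted p = 7.88e-06, limma). Fdps, which joins the units, had a change of 0.28 (adjusted p = 0.13, limma). Adjacent steps thus moved in opposite directions in this stage too. At 15 days none of the 9 other enzymes tested in either stage was called, beside 4.69% of all tested genes. In WT testes Pmvk was higher at 49 than at 15 days, by 0.85, and Mvd was lower, by -1.87 (adjusted p = 2.64e-05 and 6.76e-08, limma).

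**Figure D4:**
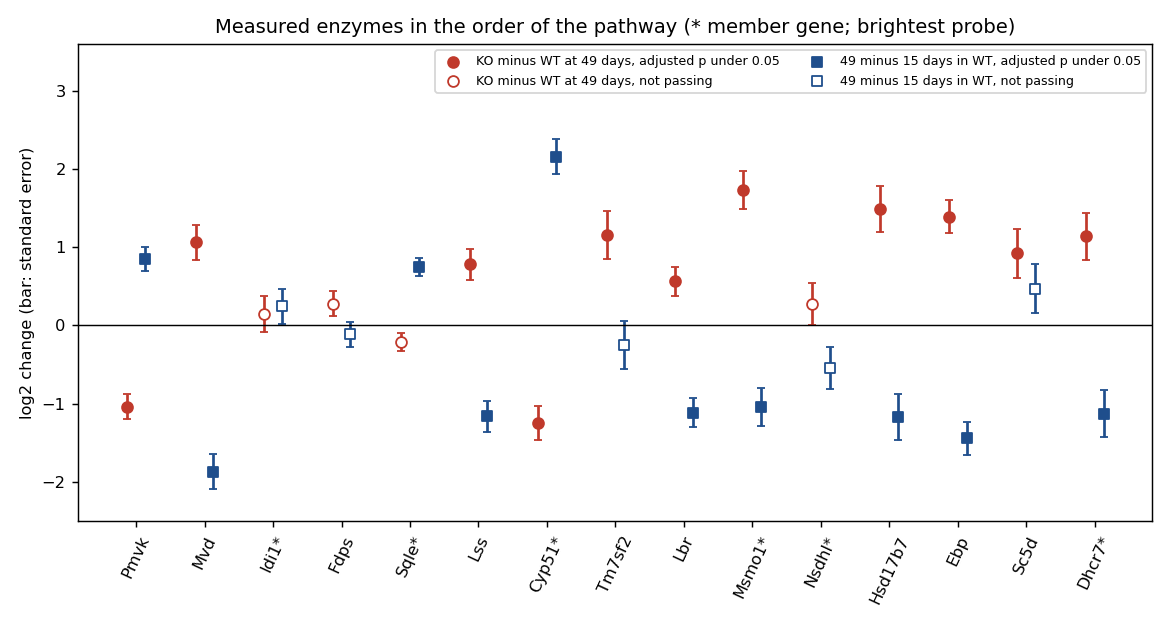
Log2 change of the 15 measured pathway enzymes in the order of the pathway, by the brightest tested probe, for KO minus WT at 49 days (circles) and 49 minus 15 days in WT (squares), with bars of 1 standard error and filled points for an adjusted p under 0.05. Both comparisons share the 6 WT arrays of 49 days; Cyp51 and Pmvk passed the test below 0 in KO, Sqle lies at -0.21 without passing, and 8 other sterol-stage enzymes passed the test above 0.

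Of the 7 genes of sterol sensing and transcription control tested, 4 were higher in KO at 49 days, 2 were lower and 1 was not called. Of all tested genes, 46.8% were called higher and 26.5% lower. Scap, the SREBP carrier, was higher by 1.30 ± 0.26 and Mbtps1, the protease that first cuts SREBP, by 0.89 ± 0.15 (SE, adjusted p = 1.52e-04 and 3.36e-05, limma). Srebf1 and Mbtps2, the second protease, were called higher (adjusted p = 0.0048 and 8.45e-04, limma) but were not well above background on any WT array of 49 days, so no fold is given. Insig2, the relative of Insig1, was lower by -0.61 on its brightest probe (adjusted p = 0.025, limma), while its second probe had a change of -0.25 that did not pass (adjusted p = 0.50). Nr1h3, a sterol-sensing nuclear receptor, was lower by -0.58 (adjusted p = 0.010, limma). Srebf2, the main activator of sterol synthesis, had a change of 0.38 (adjusted p = 0.11) on its brightest probe and of -0.46 (adjusted p = 0.010, limma) on its second, so its probes disagreed.

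All 7 genes of sterol uptake, transport and storage that were tested were higher in KO at 49 days, beside 46.8% of all tested genes. The median change of the 7 was 1.08, beside 0.30 over all tested genes, and 5 of the 7 were higher under cyclic loess. The largest change was that of Lipa, the lysosomal lipase that frees cholesterol, at 1.89 ± 0.32, followed by Npc1, which exports cholesterol from lysosomes, at 1.57 ± 0.24, and Apoe, the lipoprotein component, at 1.49 ± 0.29 (SE, adjusted p = 2.53e-05, 9.73e-06 and 1.28e-04, limma). Stard4 changed by 1.08, Scarb1 by 0.88 and Npc2 by 0.86 (adjusted p = 2.15e-04, 0.0059 and 0.0020, limma). Abcg1 was called higher (adjusted p = 0.0043) but was not well above background on any WT array of 49 days. In WT testes all 7 were lower at 49 than at 15 days, beside 55.2% of all tested genes, and 3 of the 7 under cyclic loess. Of the Leydig genes, Hsd17b3, which makes testosterone, was 5.73-fold higher in KO at 49 days, and the probes of Insl3, a hormone of these cells, disagreed: the change was 0.16 (adjusted p = 0.37) on the brightest and 1.62 (adjusted p = 3.02e-05, limma) on the second.

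Over all 24 arrays, the genes whose level was most like that of Cyp51 were H2bc12 (Pearson's r = 0.97), Ankmy1 (r = 0.97), Hk1 (r = 0.97), H2bc14 (r = 0.97) and Agpat2 (r = 0.97), among 12165 genes ranked. Sqle, by its first probe, stood at place 652 with r = 0.92, while Msmo1, Dhcr7 and the first Insig1 probe had r of -0.61, -0.65 and -0.79 with Cyp51. For Sqle, the brightest of the other members, the nearest genes were Cdkal1 (r = 0.95), Agtr1a (r = 0.95), Pom121l2 (r = 0.94), Gm1979 (r = 0.94) and Larp6 (r = 0.94), and Cyp51 stood at place 129. These values describe the 24 arrays, whose groups lie apart, and share each array's normalization.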

How the data were processed

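Testis RNA of 24 samples was labelled with a TotalPrep-96 kit and read on 1 Illumina array each, per the labels' protocols. The starting values were bead summary intensities, not normalized, as deposited by the authors for 45278 probes and 956 control rows. The scanner software is not given in the sources used here. The authors' deposited log2 values equalled quantile-normalized log2 intensities on all arrays, with a largest gap of 3.62e-05; they carry no background subtraction and were tried as another setting. Probes were named by the platform's annotation, with symbols renewed by gene identifier from RefSeq (GRCm38.p6): 34885 probes had 1 symbol, 18 several and 10375 are unnamed here.

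Intensities were background-corrected by normexp, with 946 dim control rows (median intensity under 400) as background and an offset of 16, quantile normalized and set on the log2 scale with limma 3.58.1 in R 4.3.3. The detection p columns hold no values, so the filter kept the share of 0.5 of probes with the highest mean, 22639 probes. All 24 arrays entered 1 fit with a mean per group (20 residual degrees of freedom). The Benjamini-Hochberg adjustment covered all tested probes, with a threshold of 0.05. A gene was represented by its brightest tested probe. The fit was tested on simulated log2 values in which a small part of the probes changed. That test did not cover background correction, normalization or a change of most genes. The number of arrays limits the precision.

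The text names all 8 members with all their probes, every tested gene of the other pathway, control and transport lists, and up to 3 called genes per direction from each cell type list. The genes named as not above background and Insl3 fall outside that rule and were chosen after their values were seen, as was the choice of promoters. The members and lists were chosen with earlier results of these data known. The alternatives were the authors' values, no background correction, cyclic loess, scale normalization, an offset of 50, both other filters on dim probes, slide as a block, the replicate letter as a block, the 12 arrays compared alone, array weights, agreement of all probes of a gene, and leaving out each array. The replicate letters were checked for pairing: of 24 pairs of arrays with the same letter, 5 had a correlation of their deviations over 0.1 (range -0.21 to 0.39), so the letters were not taken as pairs. The arrays lie on 4 slides, each with all 4 groups, and the correlation of arrays on a slide was -0.03.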

Additional observations from a re-analysis of the deposited data

Results flagged for a closer look

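The KO effect at 49 days differed from that at 15 days, by the test of the difference itself (limma, adjusted p under 0.05), for probes of Insig1, Sqle, Cyp51, Msmo1, Dhcr7 and Nsdhl. The effect at 49 days minus that at 15 days was -2.51 and -2.30 for the third and the second Insig1 probe, -1.77 for the second Sqle probe and -1.53 for Cyp51. It was 1.34 for Msmo1, 1.21 for Dhcr7, 0.98 for the fourth Nsdhl probe and 0.82 for the first Insig1 probe. The fourth Nsdhl probe was above background on 0 of 6 WT arrays of 49 days, so its 0.98 is a fitted value and no exact size. It did not pass under cyclic loess (0.80, adjusted p = 0.071) or on the authors' values (0.40, adjusted p = 0.078, limma).

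Single arrays far from the rest of their group, by Dixon's test, were found in 2 of 52 combinations of probe and group, where chance alone gives about 1 in 20. They were WT array E of 49 days on the first Sqle probe, at 11.89, and WT array F of 49 days on the first Nsdhl probe, at 6.98.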

How the results depend on the processing

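Under 36 alternative settings, 1253 changes of members were recomputed. Of the 572 values of the 16 changes that passed the test, all 572 kept their direction and 547 also stayed past the threshold, while 25 no longer passed, and 27 values of other changes then passed. Many of these values were bound to keep their direction. A change between 2 groups keeps its value where an array of another group is left out. The same holds where only the filter on dim probes differs. The authors' values and those without background correction give the same changes. Each of the 36 settings kept the brightest probe of each gene, so the second and the third Insig1 probe do not enter these values. They enter only the counts where every probe of a gene had to agree. By that rule Insig1 is not called at 49 days, since its probes moved in opposite directions. The counts of members called moved by over 1.5 times in these cases. Under cyclic loess 3 members were called with age in WT in place of 5, beside 77.2% of all tested genes in place of 83.1%. At 15 days 2 were called with the 12 arrays compared alone and 1 with array weights, in place of 0. The shares of all genes were then 19.2% and 21.4%, in place of 4.69%. With age in KO 5 were called with array weights in place of 3, beside 68.5% of all genes in place of 58.2%. Where every probe of a gene had to agree, 1 was called with age in KO. No share of all genes is given for that setting. With single arrays left out these counts were 5 to 6 with age in WT, 0 to 0 at 15 days, 2 to 4 with age in KO, 4 to 5 at 49 days and 3 to 5 for the difference between ages.

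Signs turned only for changes that had not passed. Nsdhl at 49 days was -0.13 under cyclic loess and -0.20 with array weights, and with age in WT it was 0.21 under cyclic loess. With slide as a fixed block Idi1 was 0.0578 at 15 days and -0.0163 for the difference between ages. With array weights Insig1 with age in KO was 0.0016. Leaving out single arrays gave -0.186 to 0.0788 for Idi1 at 15 days and -0.21 to 0.33 for Dhcr7 with age in KO. The cause of these changes was not tested.

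With the replicate block, which the letters do not support as pairs, the counts were 0 at 15 days, 4 at 49 days, 4 for the difference between ages, 5 with age in WT and 3 with age in KO, and the whole array had 1068 probes called at 15 days in place of 948. The shares of all tested genes were 5.42%, 72.8%, 52.1%, 82.9% and 57.5% in the same order. Among all probes, calls at 15 days were 3847 over the 12 arrays alone, 4305 with array weights, 2386 without KO array D of 49 days, and 468, 536, 595 and 512 without KO array D and WT arrays A, B and C of 15 days. Calls for the difference between ages were 16852 with array weights in place of 11048. The share of higher calls at 15 days was 26.2%, and 37.6% on the authors' values, 43.3% under scale normalization, 45.7% over the 12 arrays alone and 44.9% with array weights. For the difference between ages it was 62.6%, and 36.1% under cyclic loess. Signal near background limits Idi1 and the fourth Nsdhl probe.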
